A study of Mus musculus with 14 samples.

Results

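Cell cycle and replication genes were described in brain and vastus lateralis muscle of mice that lack the imprinting center of the Prader-Willi domain (PWS-IC del mice) and of their wild-type littermates. The set holds 31 genes chosen by name for their roles in DNA replication, mitosis and the cyclin-dependent kinase (CDK) system, and 30 of them had at least 1 probe set annotated to that gene alone, of 18193 genes measured in that way. Ccnb1, which encodes cyclin B1, had no probe set in the annotation used. All probe sets annotated to a member were taken, 75 of the 45101 on the array, and 1 of them was shared by Tyms and the pseudogene Tyms-ps.

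Mutant mice carried the deletion named in the labels, PWS-IC del, and their controls were wild-type littermates of the same age. The background strain was an F1 hybrid of FVB with B6, the age itself is not in the labels, and every array held total RNA of a tissue sample, which mixes many cell types. There were 3 PWS-IC del and 4 wild-type arrays of brain tissue, and 3 PWS-IC del and 4 wild-type arrays of vastus lateralis, a part of the quadriceps. The titles name no brain region. The titles number the arrays as biological replicas, and the text names arrays by these numbers.

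A dividing cell copies its DNA once and then segregates the copies. The MCM proteins form the ring-shaped helicase that is loaded on replication origins and opens the double strand, PCNA is the sliding clamp that holds DNA polymerases on the template, and enzymes such as ribonucleotide reductase, thymidylate synthase and thymidine kinase supply the building blocks. Cyclins activate CDKs in a fixed order: D cyclins with CDK4 in early G1, cyclin E and then cyclin A with CDK2 around the start and course of S phase, and cyclin B with CDK1 at mitosis, whereas p21 (Cdkn1a) and p27 (Cdkn1b) bind and inhibit these complexes. Nearly all neurons and muscle fibres of adult animals have left the cycle, and in such tissues dividing cells are mostly found among progenitors, glial precursors, blood vessel, connective tissue and immune cells. Several of these proteins, D cyclins and p27 among them, are also made in cells that do not divide.

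Promoters of these genes carry a few known sequence elements, which are shown for 5 members that behave differently on the arrays. In dividing cells E2F and MuvB-containing complexes keep many such promoters silent in G1 and switch them on later, acting at E2F sites and at the cell cycle homology region (CHR). RefSeq promoter windows on build GRCm38.p6, each running from upstream of a transcript's start to a little after it, were given for 26 of the 31 members, in 29 windows of 300 bases. Cdk1 and Top2a are mitotic genes that were not above background anywhere, Aurka is a mitotic gene that was above background in muscle alone, Mcm6 is a helicase gene, and Pcna was above background on every array. The windows lie on the minus strand at chr10:69352863-69353162 (Cdk1), chr11:99024140-99024439 (Top2a), chr2:172370521-172370820 (Aurka), chr1:128359656-128359955 (Mcm6) and chr2:132253131-132253430 (Pcna), and they are written 5′ to 3′ along the gene. Capitals mark the letters of the CHR (TTTGAA or TTCGAA), the CCAAT box (CCAAT) and the E2F core (TTCGCGC or TTGGCGC) on either strand, so that a match on the other strand appears as its reverse complement, and overlapping matches run together.
Cdk1: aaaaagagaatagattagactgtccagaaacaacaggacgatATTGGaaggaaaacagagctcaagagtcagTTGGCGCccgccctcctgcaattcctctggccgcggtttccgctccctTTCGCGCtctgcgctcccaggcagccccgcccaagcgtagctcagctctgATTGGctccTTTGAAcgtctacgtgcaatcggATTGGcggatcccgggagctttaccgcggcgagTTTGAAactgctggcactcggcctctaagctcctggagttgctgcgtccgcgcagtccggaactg
Top2a: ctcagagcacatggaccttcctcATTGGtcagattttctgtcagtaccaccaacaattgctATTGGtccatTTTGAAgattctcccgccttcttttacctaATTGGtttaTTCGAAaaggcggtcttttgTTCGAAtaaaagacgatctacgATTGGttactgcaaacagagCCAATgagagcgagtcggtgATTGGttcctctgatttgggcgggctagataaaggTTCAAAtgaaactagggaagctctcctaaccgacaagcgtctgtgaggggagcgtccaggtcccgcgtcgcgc
Aurka: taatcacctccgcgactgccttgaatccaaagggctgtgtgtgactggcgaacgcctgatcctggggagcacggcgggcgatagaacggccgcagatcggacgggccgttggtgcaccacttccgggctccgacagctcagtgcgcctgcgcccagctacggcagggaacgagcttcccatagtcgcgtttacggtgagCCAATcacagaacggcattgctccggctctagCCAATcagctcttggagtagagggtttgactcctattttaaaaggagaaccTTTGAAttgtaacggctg
Mcm6: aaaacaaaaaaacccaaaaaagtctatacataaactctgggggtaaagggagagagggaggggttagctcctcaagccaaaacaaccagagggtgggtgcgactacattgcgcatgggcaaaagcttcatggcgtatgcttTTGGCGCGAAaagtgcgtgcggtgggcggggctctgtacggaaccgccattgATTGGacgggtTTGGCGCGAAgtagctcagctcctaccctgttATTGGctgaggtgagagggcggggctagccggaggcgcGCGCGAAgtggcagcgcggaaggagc
Pcna: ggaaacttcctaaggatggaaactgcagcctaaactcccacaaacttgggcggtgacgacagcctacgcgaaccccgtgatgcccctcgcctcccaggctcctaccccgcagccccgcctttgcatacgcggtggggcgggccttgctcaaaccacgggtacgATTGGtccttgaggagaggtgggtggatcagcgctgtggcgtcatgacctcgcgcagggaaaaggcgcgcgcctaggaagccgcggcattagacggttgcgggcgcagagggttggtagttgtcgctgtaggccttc

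CHR letters were found in 10 of the 29 windows (34.5%), against 19.2% of all 32851 windows of the RefSeq table, and these 10 belonged to Aurka, Bub1, Ccnb2, Cdc20, Cdk1, Mcm2, Mcm7, Mki67, Plk1 and Top2a. The Top2a window had 4 CHR matches and the Cdk1 window 2, whereas the Aurka window had 1, which lies 32 bases after the start. A CCAAT box was present in 21 windows (72.4%), against 37.4% of all windows, and Top2a had 6 of them. The E2F core was present in 7 windows (24.1%), those of Ccnb1, Cdk1, Mcm3, Mcm5, Mcm6, Mcm7 and Mki67, against 3.89% of all windows. The Mcm6 window had 5 matches of this core and the Pcna window 0. None of the 29 windows held TATAAA, which 13.6% of all windows held. A match of letters is a description of the window and was not tested as a binding site.

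The 2 tissues and 14 arrays differed in ways that bear on these genes. Median intensity was between 142.1 and 170.1 on brain arrays and between 88.8 and 96.4 on muscle arrays. The deletion was visible in brain, where Snrpn, a gene of the imprinted domain, was at 5.03 to 6.48 log2 on PWS-IC del arrays and at 10.29 to 10.64 log2 on wild-type arrays. It was visible in muscle too, where Snhg14 of the same domain was at 5.92 to 6.23 log2 against 8.16 to 8.41 log2. Snrpn was dimmer in muscle, at 6.37 to 6.97 against 7.07 to 7.16 log2. On the first principal component of brain, which held 51.9% of the variance, wild-type arrays 1 and 2 were highest, at 36.5 and 22.6. PWS-IC del array 3 followed at 7.15, and the remaining brain arrays lay between -25.9 and -11.1. Striatal neuron markers summed to 27569 and 18890 on wild-type brain arrays 1 and 2, against 6960 to 16012 on the other brain arrays. Choroid plexus markers summed to 4158 and 4313 on the same 2 arrays, against 8910 to 16506 on the others. All 8 striatal genes had a negative genotype difference in brain (median -0.61), and 5 of 6 choroid plexus genes a positive one (median 0.54). Brain PWS-IC del array 2 had a summed intensity of 9 cerebellar markers of 137914, against 8730 and 11365 on the other PWS-IC del arrays and 8144 to 19297 on wild-type arrays. Muscle fibre markers summed to 12859 and 10286 on wild-type brain arrays 1 and 3, against 3917 to 8348 on the other brain arrays. On those others most of the sum came from Pvalb, which was at 11.3 to 12.9 log2 on all brain arrays. The remaining markers of this list were highest on wild-type arrays 1 and 3. Ckm, for example, was at 10.38 and 9.61 log2 there, against 6.38 to 7.25 log2 on the other brain arrays. Pituitary markers summed to 4733 on wild-type brain array 3, against 477 to 598 on the others. Neuron markers summed to 1769 on wild-type muscle array 2, against 280 to 791 on the other muscle arrays. The part of these transcripts in the differences below was not tested. In muscle, PWS-IC del arrays 1 and 2 and wild-type array 2 lay together on the first component (42.4% of the variance, 12.6 to 22.4) and the other 4 arrays between -19.2 and -8.46.

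The value table has no detection calls, so a background was read from the arrays themselves. On each array the cutoff was the 95th percentile of log2(intensity + 16) over 83 probe sets of olfactory, vomeronasal and taste receptor genes, and a gene was above background in a group when 1 of its probe sets exceeded the cutoff on every array of the group. Cutoffs were between 7.0 and 7.56 on brain arrays and between 6.68 and 7.13 on muscle arrays. Of the 30 measured members, 18 were above background in PWS-IC del brain and 14 in wild-type brain, where 62.9% and 59.3% of all genes were. In muscle, 19 members were above background in PWS-IC del arrays and 18 in wild-type arrays, where 58.1% and 55.4% of all genes were. The members' shares were therefore close to those of all genes, apart from wild-type brain, where 14 of 30 is below 59.3%. With the 99th percentile as cutoff the counts were 12 and 9 in PWS-IC del and wild-type brain and 6 in each muscle genotype, so detection of the dimmer members depends on the cutoff.

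Of the 8 mitotic genes, 6 were above background in no group. They were Aurkb, the kinase of the chromosomal passenger complex; Top2a, the topoisomerase that untangles sister chromatids; Mki67, the antigen used to mark cycling cells; Birc5, which encodes survivin; Bub1, a spindle checkpoint kinase; and Plk1, the polo-like kinase of mitotic entry. Plk1 exceeded the cutoff on 2 of 14 arrays, wild-type brain 2 at 7.47 and PWS-IC del muscle 3 at 6.96, and the other 5 genes on none. Mki67 was between 5.95 and 5.96 on the PWS-IC del brain arrays, against 5.61 to 6.15 on the wild-type brain arrays, and between 5.75 and 6.39 against 5.75 to 6.17 in muscle. The levels of these 6 genes therefore bound the signal from above and carry no order between groups.

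Among the cyclins and CDKs of S phase and mitosis, Cdk1 and Ccnb2, the mitotic kinase and cyclin B2, were above background on no array. Ccna2 (cyclin A2), Ccne1 (cyclin E1) and Cdk2 were above background in all 4 groups. For Ccna2 and Cdk2 this rests on 1 probe set each, and the second probe set of either gene was above background on no array. The probe set that stands for Ccne1 is of a kind whose probes can bind other transcripts too, and the second Ccne1 probe set was above background in brain, at means of 7.80 in PWS-IC del arrays and 7.83 in wild-type arrays, but on no muscle array. Rrm2, the small subunit of ribonucleotide reductase that is made in S phase, was above background on no array either, whereas Rrm1, the large subunit, was above it on all 14. The 9 members that were above background in no group were the 6 mitotic genes, Cdk1, Ccnb2 and Rrm2.

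The genes that were above background in all 4 groups numbered 14. They comprised Ccnd1, Ccnd2, Ccnd3 and Cdk4, all members of the D cyclin group; both CDK inhibitors, Cdkn1a and Cdkn1b; Mcm4 and Mcm7 of the helicase; Pcna and Rrm1; Ccna2, Ccne1 and Cdk2; and Cdc20, an activator of the anaphase-promoting complex. Tk1, the thymidine kinase of S phase, and Aurka, the Aurora kinase of the centrosome and spindle poles, were above background in muscle of both genotypes and on no brain array. The helicase genes varied most by group: 5 of the 6 were above background in PWS-IC del brain and 2 in wild-type brain, 4 in PWS-IC del muscle and 3 in wild-type muscle. These counts do not compare genotypes, since wild-type groups have 4 arrays to pass and PWS-IC del groups 3. The missing genes in wild-type brain were in part at the edge of the cutoff, since Mcm2 was at 7.54 on wild-type array 1, whose cutoff was 7.56, and above the cutoff on the other 3 arrays.

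**Figure D1:**
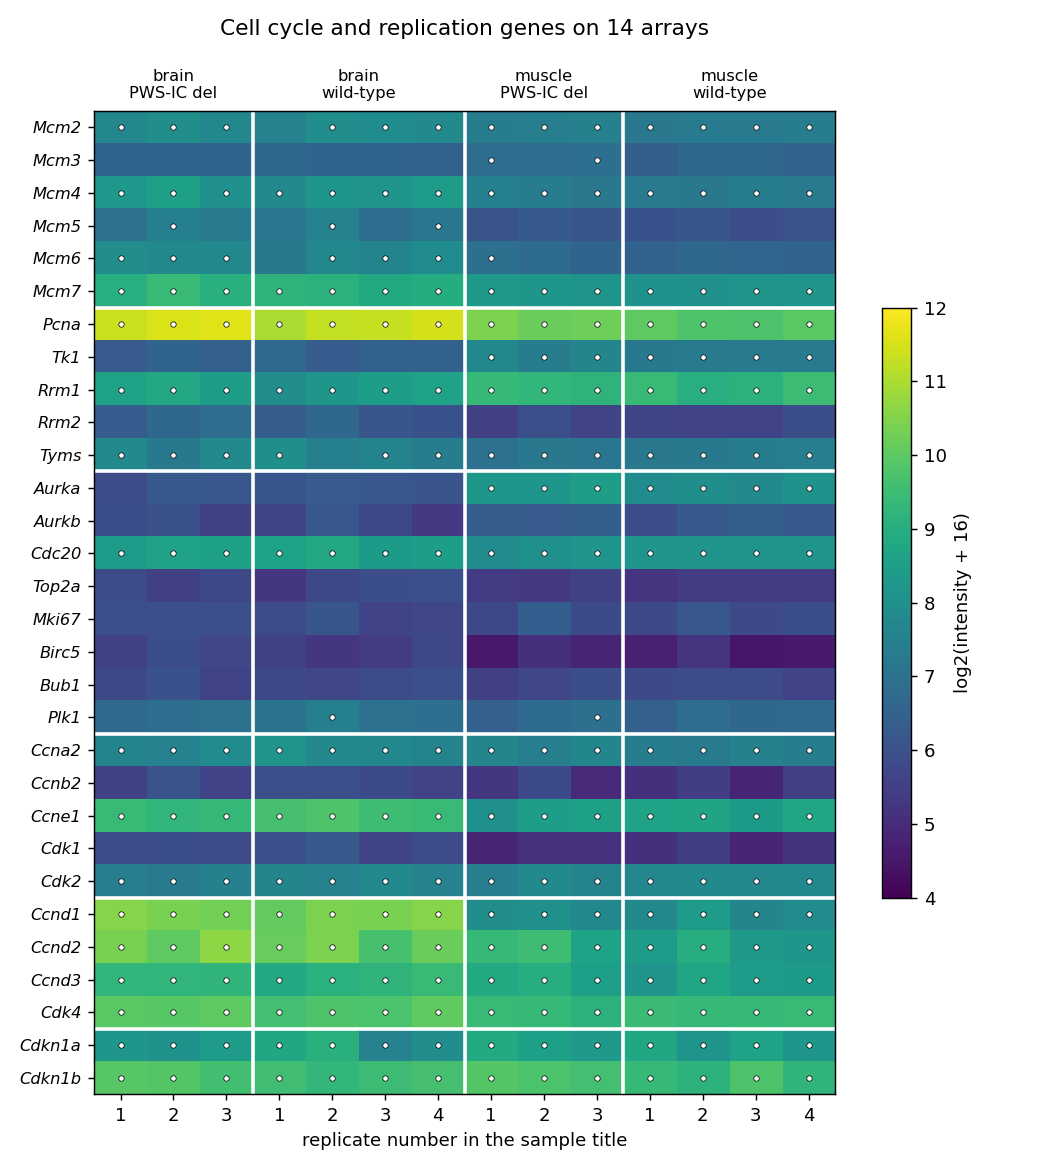
Level of each of the 30 measured members on the 14 arrays, as log2(intensity + 16) in colour, for the probe set that stands for the gene; white points mark values above the array's background cutoff, and white lines part the groups and the roles. The 4 D cyclin and Cdk4 rows and the 2 inhibitor rows carry points on all 14 arrays, while the rows of Rrm2, Aurkb, Top2a, Mki67, Birc5, Bub1, Ccnb2 and Cdk1 carry none; colours of different rows come from different probes and are not to be ranked.

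In muscle, no member passed the test for a difference between genotypes. The question was which transcripts differ in vastus lateralis of mice with the deletion, and across the 13645 genes tested by limma 2 were higher (0.0147%) and 14 lower (0.103%) in PWS-IC del arrays at an adjusted p under 0.05. Of the 23 members above the filter on low values, 0 were called in either direction, and the smallest adjusted p was 0.209. With array quality weights, a setting under which 1862 genes were called, 5 members were called higher: Aurka, Ccnd2, Ccnd3, Mcm3 and Pcna. After quantile normalization 10 genes were higher and 32 lower, and again 0 members were called. At an unadjusted p under 0.05, 7 members were higher and 0 lower, where 5.89% of all genes were higher and 6.03% lower. The median difference of the 23 members was 0.13 log2, against 0.02 over all genes, and 17 of the 23 were positive, against 54.1% of all genes. Some of the 23 were dim, and Aurkb and Mcm5 were above background on no muscle array. By the probe set standing for each gene, the values of PWS-IC del and wild-type arrays did not overlap for 4 members that were higher, Aurka, Mcm3, Pcna and Tk1, and for 1 that was lower, Tyms, where 6.31% and 5.86% of all genes had such ranges.

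Pcna, the replication clamp, was at 10.43, 10.17 and 10.23 log2 on the PWS-IC del muscle arrays, against 10.02, 9.81, 9.77 and 9.96 log2 on the wild-type muscle arrays. Every PWS-IC del array lay above every wild-type array. The difference was 0.38 ± 0.10 (SE), with a 95% interval of 0.16 to 0.61 and an adjusted p of 0.209 by limma. Across 17 alternative settings other than array weights it stayed between 0.31 and 0.44, with adjusted p between 0.145 and 0.458. The single Pcna probe set was above the cutoff on every array.

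Aurka was at 8.23, 8.21 and 8.45 log2 on the PWS-IC del muscle arrays, against 7.88, 7.98, 7.80 and 8.06 log2 on the wild-type arrays. Again the lowest PWS-IC del value exceeded the highest wild-type value. The difference was 0.36 ± 0.10 (SE), with an interval of 0.14 to 0.59 and an adjusted p of 0.221 by limma. The other Aurka probe set was above background on no array and gave a difference of 0.04.

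Tk1 was at 7.74, 7.39 and 7.65 log2 on the PWS-IC del muscle arrays, against 7.23, 7.30, 7.33 and 7.29 log2 on the wild-type arrays. PWS-IC del array 2 lay just above the highest wild-type array and the other PWS-IC del arrays further up. The difference was 0.31 ± 0.10 (SE), with an adjusted p of 0.287 by limma, and with array weights it was 0.14, with an adjusted p of 0.244. Tk1 salvages thymidine for DNA synthesis, and it was above background on all 7 muscle arrays.

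Among the helicase subunits, Mcm3 was at 6.87, 6.85 and 6.91 log2 on the PWS-IC del muscle arrays, against 6.42, 6.66, 6.72 and 6.55 log2 on the wild-type arrays. The groups did not overlap, but only 2 of the 7 values exceeded their array's cutoff. The difference was 0.29 ± 0.09 (SE), with an adjusted p of 0.287 by limma. A second Mcm3 probe set was above background on all 3 PWS-IC del arrays and on 0 of the 4 wild-type arrays, at means of 7.03 and 6.79. By the probe set standing for each gene, the 6 subunits differed by between 0.07 for Mcm4 and 0.29 for Mcm3, and the 95% intervals of the other 5 held 0. Of these probe sets, that of Mcm5 was above background on no muscle array and that of Mcm6 on PWS-IC del array 1 alone. Other probe sets of the same genes gave values of either sign: an Mcm7 probe set above background on all 14 arrays differed by -0.18, and the second Mcm4 probe set by -0.02. The dimmer Mcm2 probe set averaged 7.21 in PWS-IC del muscle and 6.80 in wild-type muscle, and it was above background on all 3 PWS-IC del arrays and 0 of the 4 wild-type arrays, so that the wild-type value is only an upper bound, whereas the brighter one differed by 0.13.

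Ccnd2, Ccnd3 and Cdkn1b had positive differences in muscle that did not pass the test, whereas those of Ccnd1 and Cdk4 were near 0. Ccnd2 (cyclin D2) was at 9.36, 9.5 and 8.63 log2 on the PWS-IC del arrays, against 8.40, 8.99, 8.31 and 8.25 log2 on the wild-type arrays. PWS-IC del arrays 1 and 2 stood above all others, and PWS-IC del array 3 lay below wild-type array 2, so the groups overlapped. The difference was 0.67 ± 0.24 (SE), with an interval of 0.12 to 1.23 and an adjusted p of 0.337 by limma. All 7 Ccnd2 probe sets gave a positive difference, between 0.14 and 0.67, and they report the same gene, so they are not separate evidence.

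Ccnd3 (cyclin D3) followed the same arrays, at 8.90, 9.0 and 8.50 log2 in PWS-IC del muscle, against 8.16, 8.73, 8.43 and 8.37 log2 in wild-type muscle. PWS-IC del arrays 1 and 2 and wild-type array 2 were again the 3 highest. The difference was 0.38 ± 0.16 (SE), with an adjusted p of 0.397 by limma, and the other 2 Ccnd3 probe sets, which were above background on no muscle array, gave 0.02 and -0.35. Cdkn1b was at 9.87, 9.74 and 9.60 log2 in PWS-IC del muscle, against 9.36, 9.17, 9.78 and 9.23 log2 in wild-type muscle, where array 3 fell among the PWS-IC del arrays. Its difference was 0.35 ± 0.15 (SE), with an adjusted p of 0.403 by limma. Ccnd1 (cyclin D1) and Cdk4 differed by -0.02 and -0.08, with 95% intervals of -0.41 to 0.38 and -0.28 to 0.13.

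Marker genes of other cells moved with the same muscle arrays. The summed intensity of 12 macrophage markers was 9555, 9077 and 6176 on PWS-IC del arrays 1, 2 and 3, against 6331, 7349, 5626 and 5821 on the wild-type arrays, with 11 of the 12 genes positive. The sum of 8 fibroblast markers was 22653, 29376 and 16149 against 19310, 23375, 16006 and 18005, with 8 of 8 positive. The sum of 10 muscle fibre markers was 129413 to 137542 in PWS-IC del and 138196 to 145746 in wild-type arrays, with 9 of 10 negative. The 11 endothelial markers were all negative, with sums of 3697 to 4987 in PWS-IC del muscle and 4929 to 6290 in wild-type muscle, and the sums of 8 satellite cell markers overlapped, at 1843 to 2316 and 1586 to 1981. PWS-IC del arrays 1 and 2 thus had the highest macrophage sums and also the highest Ccnd2 and Ccnd3 values. In bulk tissue, more cells of a type and more RNA per cell cannot be told apart, and the part of these cells in the differences was not tested.

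**Figure D2:**
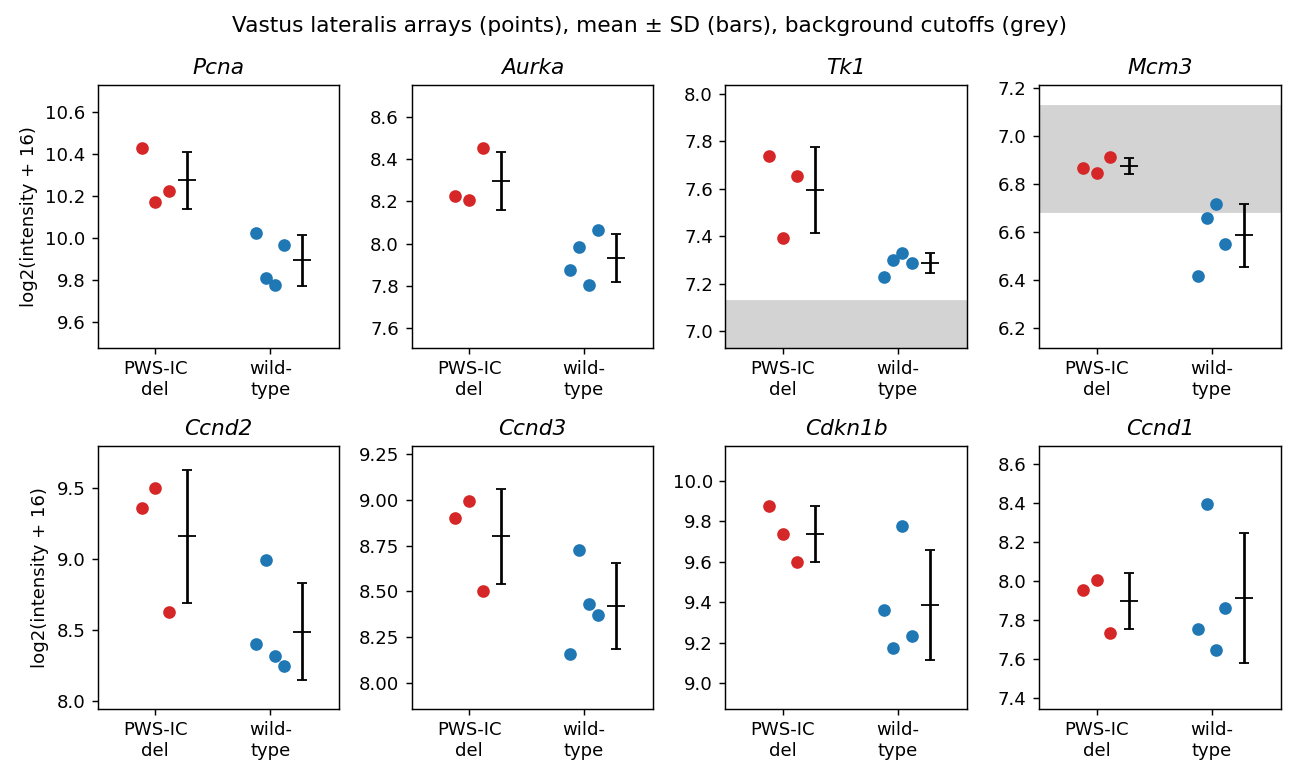
Levels in vastus lateralis, as log2(intensity + 16), of the 7 members with an unadjusted p under 0.05 and of Ccnd1; each point is an array, PWS-IC del on the left (n = 3) and wild-type on the right (n = 4), black bars give the mean ± SD, and the grey band spans the background cutoffs of the 7 muscle arrays. Each panel has its own vertical range, and the groups are separate for Pcna, Aurka, Tk1 and Mcm3 and overlap for Ccnd2, Ccnd3, Cdkn1b and Ccnd1.

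The remaining muscle values were smaller or negative. Tyms, thymidylate synthase, was at 7.01, 7.19 and 7.14 log2 in PWS-IC del muscle, against 7.20, 7.23, 7.36 and 7.42 log2 in wild-type muscle, with no overlap and a gap of less than the spread within either group. The difference was -0.19 ± 0.09 (SE), with an adjusted p of 0.451 by limma. It rests on 1 probe set. The other 3 probe sets of Tyms alone were above background on no array, and the one shared with Tyms-ps was above it on no muscle array. Ccna2 differed by 0.19 and Ccne1 by -0.24, with adjusted p of 0.434 and 0.538 by limma, and their groups overlapped. Rrm1, Plk1 and Cdkn1a differed by 0.04, 0.04 and 0.14, each with a 95% interval that held 0. Rrm2, Top2a, Mki67, Birc5, Bub1, Ccnb2 and Cdk1 were too dim in muscle to enter the test.

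In brain, no member passed the test either. Of 13645 genes 1 was higher (0.00733%) and 8 were lower (0.0586%) in PWS-IC del arrays, and of the 19 members tested 0 were called (after quantile normalization 0 genes were higher and 7 lower), with a smallest adjusted p of 0.556 by limma. At an unadjusted p under 0.05, 1 member was higher (Cdkn1b) and 1 lower (Ccne1), where 5.29% of all genes were higher and 2.91% lower. The median difference of the 19 members was 0.06 log2, as over all genes, and 13 of the 19 were positive, against 61.9% of all genes. By the probe set standing for each gene, no member had all PWS-IC del values above all wild-type values, where 5.78% of genes did, and 2 members, Ccne1 and Cdk2, had all of them below, where 2.87% of genes did.

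Ccne1 was at 9.39, 9.25 and 9.32 log2 on the PWS-IC del brain arrays, against 9.63, 9.79, 9.53 and 9.40 log2 on the wild-type brain arrays. The groups did not overlap by a narrow margin, and wild-type arrays 1 and 2 were the highest. The difference was -0.27 ± 0.12 (SE), with an interval of -0.53 to -0.0064 and an adjusted p of 0.556 by limma, and it was -0.14 with those arrays left out. Its second probe set differed by -0.03. Cdk2, the kinase partner of cyclins E and A, was at 7.43, 7.31 and 7.52 log2 in PWS-IC del brain, against 7.63, 7.55, 7.83 and 7.54 log2 in wild-type brain. Its difference was -0.22 ± 0.11 (SE), and the gap between the groups was small beside the spread within them.

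Cdkn1b was at 9.92, 9.86 and 9.57 log2 on the PWS-IC del brain arrays, against 9.55, 9.29, 9.49 and 9.63 log2 on the wild-type brain arrays. PWS-IC del array 3 fell among the wild-type arrays. The difference was 0.29 ± 0.13 (SE), with an interval of 0.0037 to 0.58 and an adjusted p of 0.556 by limma. The other Cdkn1b probe set, which was above background on no array, gave -0.29, and the mean of both probe sets differed by -0.000543. Cdkn1a, the p53-responsive inhibitor, was at 8.20, 8.12 and 8.44 log2 on the PWS-IC del brain arrays, against 8.79, 9.07, 7.53 and 7.93 log2 on wild-type arrays 1 to 4, which spread widely. Wild-type arrays 1 and 2, the highest on the first component, were the high ones, and without them the difference was 0.52 in place of -0.08.

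Of the replication genes tested in brain, none passed the test. Pcna was at 11.35, 11.56 and 11.59 log2 on the PWS-IC del arrays, against 10.98, 11.26, 11.28 and 11.48 log2 on the wild-type arrays, with a difference of 0.25 ± 0.13 (SE) and an adjusted p of 0.564 by limma. Rrm1 was at 8.61, 8.82 and 8.45 log2 in PWS-IC del, against 7.96, 8.22, 8.49 and 8.61 log2 in wild-type brain, with a difference of 0.30 ± 0.17 (SE). A second Rrm1 probe set, above background on all 14 arrays, was at 8.25 to 8.54 in PWS-IC del brain and 7.91 to 8.24 in wild-type brain without overlap, a difference of 0.25 with an unadjusted p of 0.0918 by limma. For the probe sets standing for both genes wild-type array 1 was the lowest, and without wild-type arrays 1 and 2 the differences were 0.12 for Pcna and 0.07 for Rrm1. The 5 helicase subunits tested differed by 0.02 to 0.20. For Mcm2, Mcm4, Mcm7 and Rrm1 the highest value of all brain arrays was that of PWS-IC del array 2, the array with the high cerebellar marker sum. Mcm6 was highest on PWS-IC del array 1, Pcna on PWS-IC del array 3, Tyms on wild-type array 1 and Mcm5 on wild-type array 2. The part of regional composition was not tested. Sums of neuroblast and oligodendrocyte precursor markers overlapped between genotypes, at 8620 to 10466 in PWS-IC del and 9105 to 9795 in wild-type brain for 9 neuroblast genes and at 6764 to 9680 and 7227 to 10039 for 7 genes of oligodendrocyte precursors. Of these genes 6 of 9 and 4 of 7 had a negative difference, with medians of -0.28 and -0.04. The neuroblast genes Dcx, Dlx2, Sp8 and Eomes were highest on wild-type arrays 1 and 2, whereas Sox11 was lowest there. Stmn2, Cd24a, Nes and Igfbpl1 showed neither order. Most of the neuroblast sum came from Stmn2, at 12.5 to 12.9 log2 on the brain arrays, so the sum says little of the dimmer neuroblast genes. All 11 endothelial markers had a negative difference in brain (median -0.26), with sums of 2430 to 2785 on PWS-IC del arrays and 2594 to 3968 on wild-type arrays. The part of these cells in the brain values was not tested. Mcm3, Tk1 and Aurka were below the filter in brain, and so were Aurkb and the 7 dimmest genes named for muscle.

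**Figure D3:**
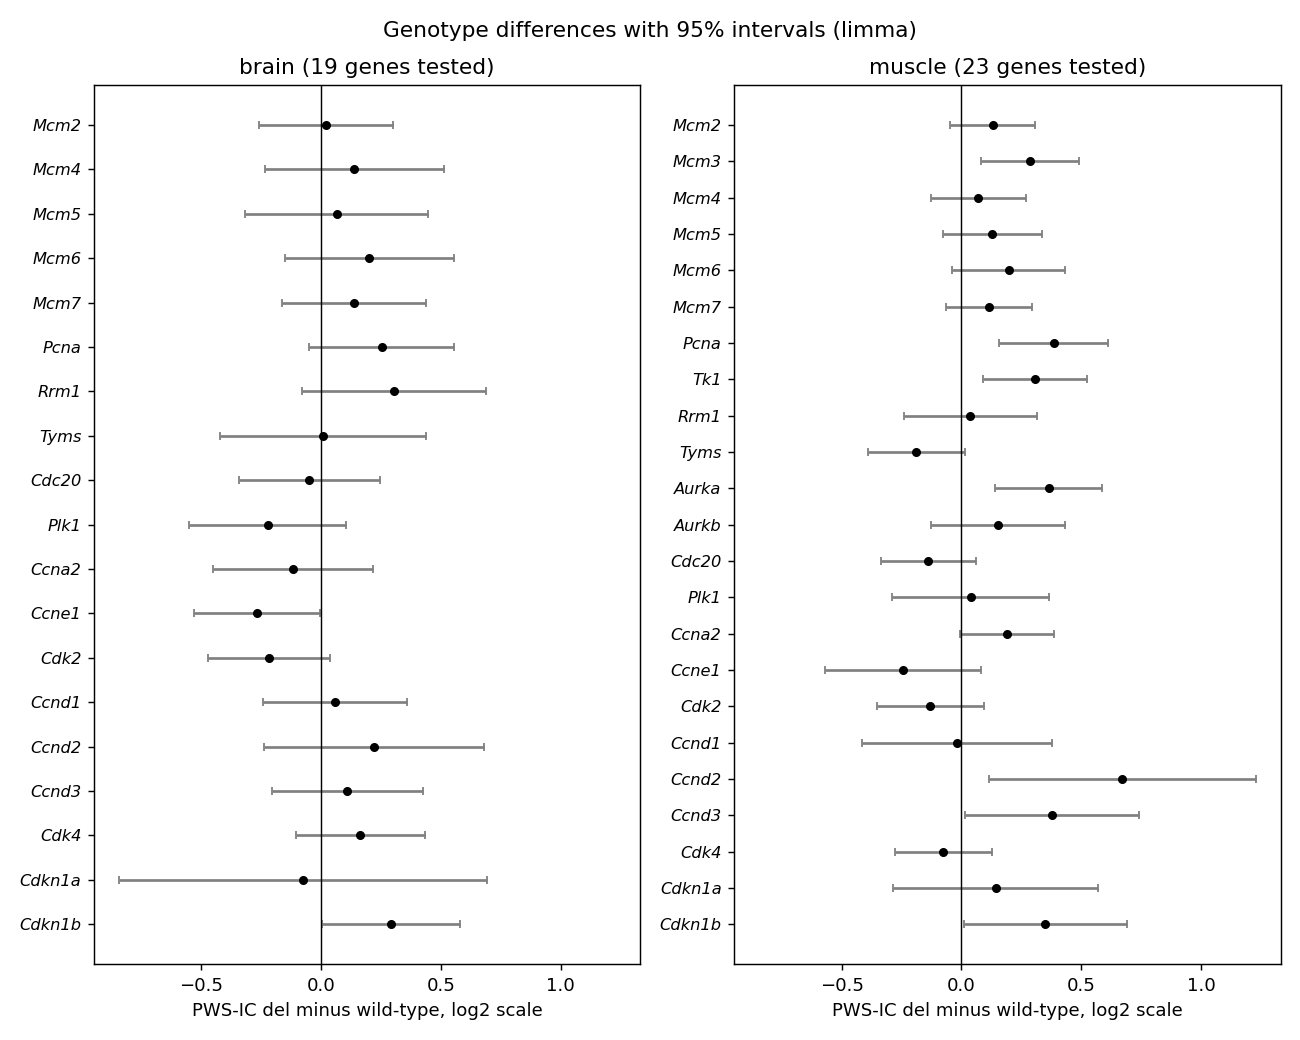
Genotype difference of each tested member, PWS-IC del minus wild-type on the log2(intensity + 16) scale, in brain (left, 19 genes) and muscle (right, 23 genes), with 95% intervals from limma before adjustment; 3 PWS-IC del and 4 wild-type arrays entered each fit. Intervals that leave out 0 belong to Ccne1 and Cdkn1b in brain and to Mcm3, Pcna, Tk1, Aurka, Ccnd2, Ccnd3 and Cdkn1b in muscle, and after adjustment over 13645 genes none of them passed.

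With every probe set taken by itself, no member passed either. Of 45037 probe sets 28 (0.0622%) were called in brain and 29 (0.0644%) in muscle, and of the 75 probe sets of members 0 were called in either tissue by limma. In brain 2 of the 75 were higher and 2 lower at an unadjusted p under 0.05, where 2.7% and 3.69% of all probe sets were. In muscle 10 were higher and 2 lower, where 4.17% and 6.17% were. The 10 belonged to 8 genes, with 2 each from Ccnd2 and Mcm3, and the 2 lower ones were dim probe sets of Ccnd3 and Tyms, above background on no muscle array.

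No member passed the test of whether the genotype difference is the same in both tissues. In the interaction test 12 of 13645 genes (0.0879%) were called and 0 of 22 members, with a smallest adjusted p of 0.628 by limma. The members with an unadjusted p under 0.05 were Aurka, Mcm3 and Tk1, with interaction differences, brain minus muscle, of -0.44 ± 0.15, -0.30 ± 0.12 and -0.37 ± 0.16 (SE). All 3 were lower and 0 members higher, where 2.04% of all genes were lower and 4.42% higher. None of the 3 had a probe set above background on any brain array. For Pcna the interaction was -0.13 ± 0.17 (SE), and for Ccnd2 it was -0.45 ± 0.34 (SE).

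Between tissues the members differed far more than between genotypes, and the sign of many differences depends on how arrays are scaled. As deposited, 13 of the 22 members tested were higher and 4 lower in brain than in muscle of PWS-IC del mice, where 59.3% of all genes were higher and 20.7% lower. In wild-type mice 14 were higher and 3 lower, where 60.6% and 22.7% were. The median of all genes was itself 0.57 log2 higher in brain of PWS-IC del mice and 0.55 in wild-type mice, and the members' medians of 0.47 and 0.42 lay below these. After quantile normalization the members called were 3 higher and 12 lower in PWS-IC del and 5 higher and 12 lower in wild-type mice, while all genes split 4773 to 6166 and 4884 to 6316, against 8093 to 2825 and 8263 to 3091 as deposited. How the authors normalized between arrays is not given in the sources used here, so only directions that were called under the deposited values, quantile normalization and median centring are described as differences.

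Under all 3 scalings and in both genotypes, Ccnd1 and Pcna were higher in brain. Ccnd1 averaged 10.42 ± 0.13 in brain and 7.89 ± 0.14 in muscle of PWS-IC del mice (SD, n = 3 each), a difference of 2.52 log2 as deposited and 1.67 after median centring. In wild-type mice it averaged 10.36 ± 0.20 in brain and 7.91 ± 0.33 in muscle (SD, n = 4 each), a difference of 2.44 and 1.64. Cyclin D1 is the D cyclin best known as a target of growth factor signals. Pcna was higher in brain by 1.23 in PWS-IC del and by 1.36 in wild-type mice as deposited, and by 0.37 and 0.55 after median centring.

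Aurka, Tk1 and Rrm1 were lower in brain under all 3 scalings and in both genotypes. Aurka differed by -2.19 in PWS-IC del mice and -1.76 in wild-type mice. Since Aurka was not above background on any brain array, the comparison gives a bound, and muscle was at least 2.22-fold above brain in PWS-IC del and at least 1.47-fold in wild-type mice, taking the higher of the cutoff and the brain value on each brain array. Tk1 differed by -1.15 and -0.78, which gives at least 1.37-fold in PWS-IC del mice and no bound above 1 in wild-type mice. Rrm1 was above background in both tissues and differed by -0.67 and -0.94. It averaged 8.63 ± 0.18 in brain and 9.30 ± 0.08 in muscle of PWS-IC del mice (SD, n = 3 each), and 8.32 ± 0.29 and 9.26 ± 0.22 in wild-type mice (SD, n = 4 each).

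Further members met the same condition in only 1 genotype. Ccnd2 was higher in brain of wild-type mice under all 3 scalings, by 1.62 as deposited. Mcm5 in wild-type mice and Mcm3 in PWS-IC del mice met the condition too, Mcm5 with the higher values in brain and Mcm3 with the lower, but the Mcm5 probe set was above background on no muscle array and the Mcm3 probe set on no brain array, so no size is given. The interaction adjusted p was 0.885 for Ccnd2, 0.973 for Mcm5 and 0.714 for Mcm3 by limma, so a dependence of the tissue difference on genotype was not shown. The sign changed with the scaling for 8 members in both genotypes, Mcm2, Tyms, Cdc20, Plk1, Ccna2, Ccnd3, Cdk4 and Cdkn1b, and for Mcm3 in wild-type mice. The probe set shared by Tyms and Tyms-ps averaged 8.69 in brain and 5.87 in muscle of PWS-IC del mice, and 8.88 and 5.78 in wild-type mice. It was above background on every brain array and on no muscle array, and its signal cannot be assigned to either gene.

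**Figure D4:**
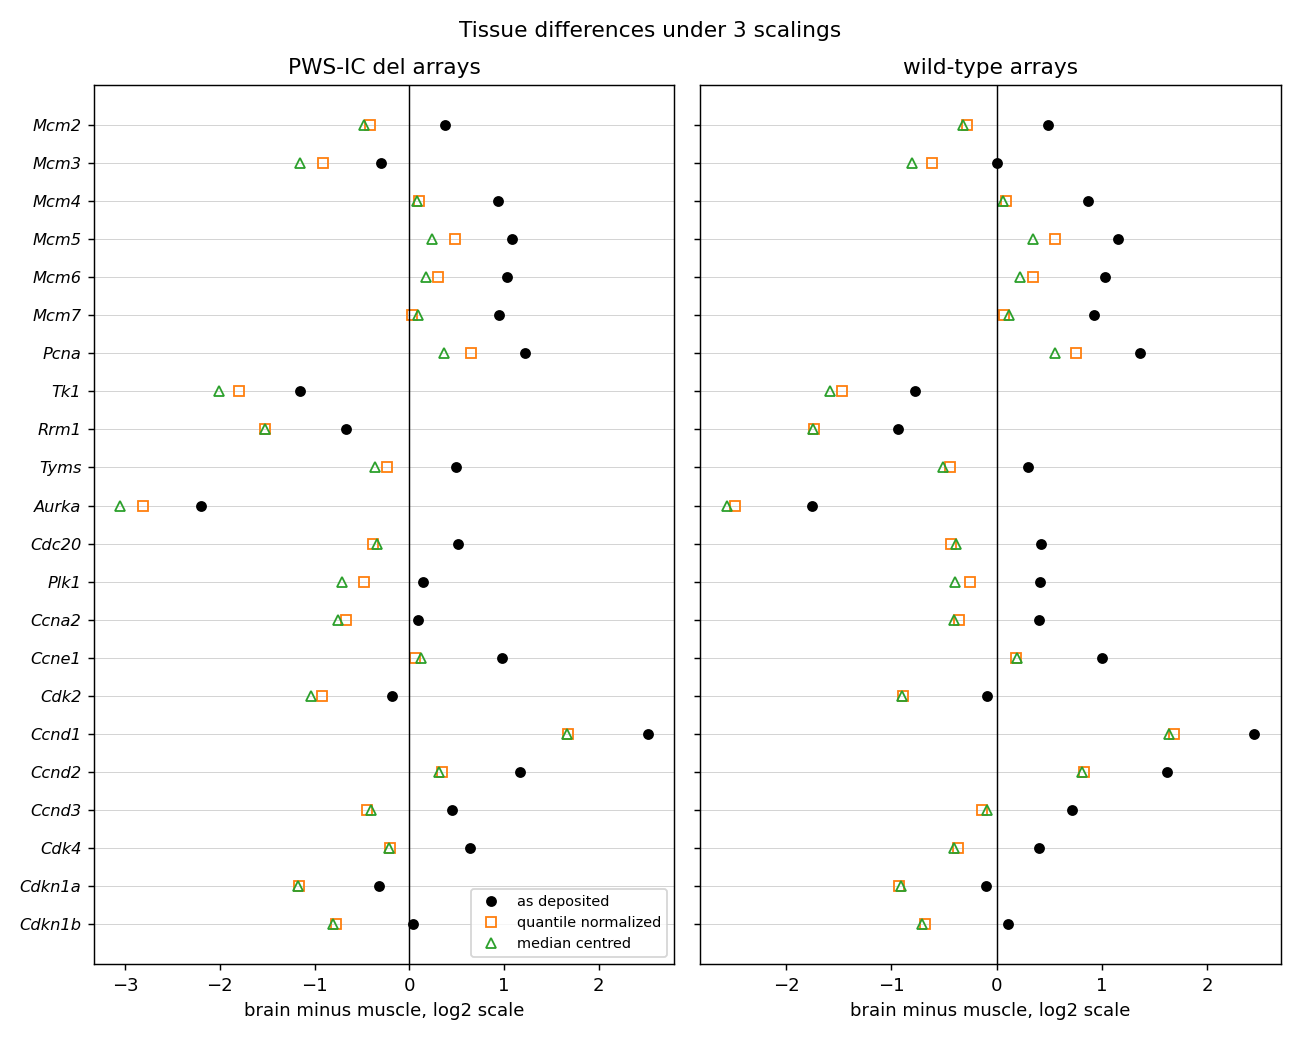
Brain minus muscle difference of the 22 members tested, on the log2(intensity + 16) scale, in PWS-IC del (left) and wild-type (right) arrays under 3 scalings: as deposited (filled circles), quantile normalized (squares) and median centred (triangles). Ccnd1 and Pcna lie right of 0 and Aurka, Tk1 and Rrm1 left of 0 under all 3, while 8 members in PWS-IC del arrays and 9 in wild-type arrays lie on both sides.

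Other genes of the same pathways were read from 6 lists of 139 genes with no member among them, 134 of which were measured. Of the 101 tested in brain and the 108 tested in muscle, 0 were called in either direction by limma. At an unadjusted p under 0.05, 11 were higher (10.9%) and 4 lower (3.96%) in PWS-IC del brain, and 10 were higher (9.26%) and 8 lower (7.41%) in PWS-IC del muscle. The shares over all genes were 5.29% higher and 2.91% lower in brain and 5.89% and 6.03% in muscle. The median differences of the 6 lists lay between 0.07 and 0.21 in brain and between -0.0032 and 0.07 in muscle, against medians over all genes of 0.06 and 0.02.

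The gene nearest the threshold was Gadd45a, a p53 target that responds to DNA damage and, in muscle, to loss of innervation. It was at 9.73, 9.47 and 9.35 log2 in PWS-IC del muscle, against 8.84, 8.59, 8.81 and 8.73 log2 in wild-type muscle, with no overlap. The difference was 0.77, with an adjusted p of 0.0527 by limma, and over 17 alternatives other than array weights the adjusted p lay between 0.0323 and 0.244, so that its call depends on the setting. In brain it was at 7.84, 8.17 and 7.96 against 7.07, 7.73, 7.53 and 7.65 log2, a difference of 0.50 with an adjusted p of 0.556. The other p53 target with a small p in muscle was Mdm2 at 0.20, and in brain Sesn1 at 0.30.

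Of the mitosis and cytokinesis list, Ncapg, a condensin subunit, differed by 0.76 in muscle, with an adjusted p of 0.118 by limma, and was above background on 2 of 7 muscle arrays. Racgap1, which acts in cytokinesis, differed by -0.38 there and was above background on 1 of the 7 arrays. In brain Bub1b, a spindle checkpoint protein, differed by -0.52 and Tpx2, a spindle assembly factor and activator of Aurora A, by -0.38, both with an adjusted p of 0.556. Bub1b was above background on 2 and Tpx2 on 4 of the 7 brain arrays.

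Of the licensing list, Cdt1, which loads the MCM helicase, and Mcm10 differed by -0.38 and -0.36 in muscle, with adjusted p of 0.29 and 0.346 by limma, but neither was above background on any muscle array. Orc6 and Orc4, subunits of the origin recognition complex, differed by 0.30 and 0.35 in brain. Of the fork and nucleotide list, Rpa2 and Gins4 differed by 0.27 and 0.19 in muscle, and Dut and Pola1 by 0.34 and 0.41 in brain, where Pola1 was above background on 1 of 7 arrays. Among other cyclins and kinases, Ccng2 differed by 0.34 in muscle and 0.27 in brain, Chek2, a DNA damage kinase, by -0.31 in muscle with no muscle array above background, and Ccng1, a p53-responsive cyclin, by 0.46 in brain. Of the pocket protein and E2F list, Tfdp1 and Rbl2 differed by 0.29 and 0.34 in muscle, and Lin54 and Lin9, subunits of the MuvB core that binds the CHR, by 0.31 and 0.38 in brain, where Lin9 was above background on 3 of 7 arrays.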

How the data were processed

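RNA was measured on 14 Affymetrix mouse genome arrays, a 1-colour design. Each deposited value is a linear intensity of a probe set on an array, which the authors made with PLIER in the Affymetrix Expression Console, per the submitters' processing notes; the background correction and normalization were not given in the sources used here. Groups came from the sample titles and source names.

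Values were taken as log2(intensity + 16), a scale that understates changes of dim genes. Control probe sets (64) were left out. The platform annotation, which can be old, gave 1 symbol to 34945 probe sets and several to 932, and left 9160 unnamed. A gene was represented by the 1-symbol probe set whose mean over 14 arrays was highest, and genes below the 0.25 quantile were not tested. limma 3.58.1 in R 4.3.3 (lmFit, eBayes) fitted each tissue alone, and all arrays together for the interaction and the tissue contrasts. The p-values were 2-sided and were adjusted by Benjamini-Hochberg over all genes, with a threshold of 0.05. The fits were tested on simulated data. Promoter windows were credited to RefSeq, GRCm38.p6.

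The members, pathway lists, marker lists and tests were chosen with earlier results of these data known. Named genes are all members and, of each pathway list, the 2 with the smallest p in a tissue. The alternatives covered the pseudocount, the scaling, the filter, the choice of probe set, array weights, an intensity trend, a joint fit, the replicate number as a block and each array left out. The labels call the arrays biological replicas, and their number limits the precision.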

Additional observations from a re-analysis of the deposited data

Results flagged for a closer look

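Of 60 sets of 4 wild-type values tested for a lone value (30 members in 2 tissues), 1 had one, where chance gives about 1 in 20. Top2a was at 5.23 log2 on muscle wild-type array 1, below the other wild-type muscle arrays, which lay between 5.40 and 5.43. All 4 values are below the background cutoff.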

How the results depend on the processing

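No member was called for genotype in either tissue or in the interaction under the alternatives run, except in muscle with array weights, where 5 members were called among 1862 genes. Gene counts moved more. In muscle 16 genes were called, against 29 with a pseudocount of 64, 42 after quantile normalization, 26 after median centring, 8 with no filter, 29 with the filter at the 0.5 quantile, 59 with an intensity trend, 39 in the joint fit and 6 to 26 with 1 array left out. The interaction count of 12 was 6 with the filter at the 0.5 quantile, 98 with array weights and 6 to 14 with 1 array left out. In brain the count of 9 was 6 or 7 with 1 array left out, and 8 without wild-type arrays 1 and 2, an alternative added after seeing the data.

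The median difference of the members, 0.06 in brain, was 0.0103 after median centring, 0.15 with the filter at the 0.5 quantile and 0.0214 to 0.16 with 1 array left out. In muscle it was 0.13, against 0.0990 with a pseudocount of 64, 0.0977 with no filter, 0.0662 with the mean of probe sets and 0.11 to 0.16 with 1 array left out. For single members, the mean of probe sets gave -0.000543 for Cdkn1b in brain, 0.0467 for the Ccnd3 interaction and -0.0813 for Mcm2 between tissues in PWS-IC del mice, each opposite in sign to the single probe set, and array weights gave 0.0292 for Cdk2 in muscle.

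Between tissues, sign changes came mostly with the scaling. Mcm2 in PWS-IC del mice also changed sign with the mean of probe sets, and some differences smaller than their SE did so under other alternatives. In PWS-IC del mice, quantile normalization and median centring gave -0.67 and -0.76 for Ccna2, -0.44 and -0.40 for Ccnd3, -0.38 and -0.34 for Cdc20, -0.20 and -0.21 for Cdk4, -0.77 and -0.81 for Cdkn1b, -0.42 and -0.48 for Mcm2, -0.48 and -0.70 for Plk1, and -0.24 and -0.36 for Tyms. In wild-type mice they gave -0.36 and -0.40 for Ccna2, -0.14 and -0.0884 for Ccnd3, -0.43 and -0.38 for Cdc20, -0.37 and -0.41 for Cdk4, -0.68 and -0.70 for Cdkn1b, -0.28 and -0.32 for Mcm2, -0.61 and -0.80 for Mcm3, -0.25 and -0.40 for Plk1, and -0.44 and -0.51 for Tyms. These settings remove the higher median of brain arrays by construction. With the filter at the 0.5 quantile 9 members were called in either genotype, since fewer were tested. With the 99th percentile as background, 9 members were above it in wild-type brain and 6 in muscle of either genotype.

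Deviations of same-numbered PWS-IC del and wild-type arrays correlated at -0.05, -0.26 and -0.44 in brain and at 0.05, 0.38 and -0.03 in muscle. Between brain and muscle, same-numbered arrays correlated at 0.05 to 0.15 in PWS-IC del and at -0.03 to 0.01 in wild-type mice. Such correlations cannot show whether a brain and a muscle sample came from the same mouse. The titles do not say, and the main fits treated all arrays as independent. With the number as a replicate block, 3 genes were called in brain, 2 in muscle and 5 in the interaction, no member was called for genotype, and the members' median in brain was 0.11. The cause of the other changes was not tested. Dim members, below the cutoff in a group, have only an upper bound there.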
